A study of Mus musculus with 15 samples.

Results

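The 10 genes described here control the making of skeletal muscle: *Pax7*, the 4 myogenic bHLH factor genes *Myf5*, *Myod1*, *Myog* and *Myf6*, the fusion genes *Mymk* and *Mymx*, and the MEF2 genes *Mef2a*, *Mef2c* and *Mef2d*. They were chosen by symbol, as the 10 rows of the count table whose Ensembl identifier carries one of these names in the GRCm38 annotation, out of 30672 genes in the table. Read counts per gene were measured by sequencing mRNA of the tibialis anterior, which lies along the shin. All samples came from male 129Pas mice aged 7 weeks, in 4 groups: WT (n = 4), WT given tamoxifen (WT + TAM, n = 4), mutants lacking *Mtm1* (Mtm1-/y, n = 4) and mutants given tamoxifen (Mtm1-/y + TAM, n = 3). *Mtm1* lies on the X chromosome and encodes myotubularin, a lipid phosphatase, and its loss causes X-linked myotubular myopathy. Tamoxifen binds the estrogen receptors and was tested as a treatment of the mutants. The sources used here give neither its dose, route and duration nor what the untreated mice received.

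PAX7 is the transcription factor that marks satellite cells, the stem cells of muscle, which lie between a fibre and its basal lamina. Activated satellite cells express MYF5 and MYOD1, and then myogenin (*Myog*) as they differentiate. The myoblasts fuse through the membrane proteins myomaker (*Mymk*) and myomixer (*Mymx*). MRF4 (*Myf6*) is the bHLH factor most abundant in adult fibres, and the MEF2 proteins bind beside the bHLH factors and act with them on muscle genes.

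The bHLH factors bind the E-box, written CANNTG, and the MEF2 proteins an AT-rich site. RefSeq promoter windows on GRCm38.p6, each holding 250 bases before and 50 bases after a start site, were found for 6 of the 10 genes, and not for *Myf6*, *Myod1*, *Mymk* or *Mymx*. The 2 sequences below are the 250 bases before the start site of *Myog*, which rose in the mutants, and of *Mef2c*, which differed least clearly among the called genes. They are the windows that held both an E-box and a MEF2 match. Both are on the plus strand and are written 5′ to 3′. Capitals mark the letters matching CANNTG or, on either strand, the MEF2 consensus with its last position left free. Both marked MEF2 stretches match only with that position free.

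*Myog*, chr1:134289754-134290003: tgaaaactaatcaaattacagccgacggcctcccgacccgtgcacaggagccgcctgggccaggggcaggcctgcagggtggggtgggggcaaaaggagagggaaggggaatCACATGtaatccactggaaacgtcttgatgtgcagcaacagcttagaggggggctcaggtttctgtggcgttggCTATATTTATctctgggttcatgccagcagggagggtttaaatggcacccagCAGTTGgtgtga

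*Mef2c*, chr13:83503784-83504033: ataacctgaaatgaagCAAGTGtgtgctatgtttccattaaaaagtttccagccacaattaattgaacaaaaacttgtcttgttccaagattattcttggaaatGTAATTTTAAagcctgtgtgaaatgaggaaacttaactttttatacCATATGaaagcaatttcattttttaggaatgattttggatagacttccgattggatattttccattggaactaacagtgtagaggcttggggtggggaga

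In the *Myog* window the E-boxes began 138 and 12 bases before the start site (CACATG and CAGTTG), and the MEF2 match (CTATATTTAT) began 64 bases before it. The *Mef2c* window held E-boxes starting 234 and 100 bases before the start site and a MEF2 match starting 146 bases before it. Of the other two *Mef2c* windows, 1 held an E-box and the other no match of either kind, and the windows of *Pax7*, *Myf5* and *Mef2d* also held none. The *Mef2a* window held a MEF2 match that began 2 bases before the start site. Across 32851 mouse promoter windows of this length, 72.31% held CANNTG and 7.66% held the MEF2 pattern with its last position free. These matches therefore describe letters only.

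Libraries held 18042558 to 45823277 counts. Levels are given as CPM, the counts of a library scaled to a common total with edgeR's TMM factors, so that 1 count was worth 0.0224 to 0.053 CPM. A count of 0 in a library allows up to 3 counts, for counting error only. After a filter on low counts 15533 genes were tested, and genes are named called where edgeR's quasi-likelihood test gave an adjusted p under 0.05 (Benjamini-Hochberg, over all tested genes). All 10 members passed the filter, but *Mymx* passed only through the mutant libraries, the groups where it is high. Its values are therefore given as a description. It is left out of the counts of members called between genotypes, except where *Mymx* is said to be included. *Mtm1* itself was at 14.9 to 15.6 CPM in WT and at 2.91 to 3.63 CPM in Mtm1-/y libraries, as the labels say. In principal components, Mtm1-/y replicate 1 (-69.1 on the second component) and WT + TAM replicate 1 (-73.1 on the third) stood apart from the rest. The 10 markers of differentiated fast fibres, none of them at 0 in any group, summed to 223000 to 296000 CPM in WT and 177000 to 235000 CPM in Mtm1-/y. Of these, 3 were called lower between these groups and 0 higher, which is 30% against 30.4% of all tested genes. With tamoxifen (218000 to 257000 against 194000 to 198000 CPM) 2 were called lower and 0 higher, 20% against 20.1%. Both shares are near those of all tested genes. The part of these markers in the results below was not tested.

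**Figure D1:**
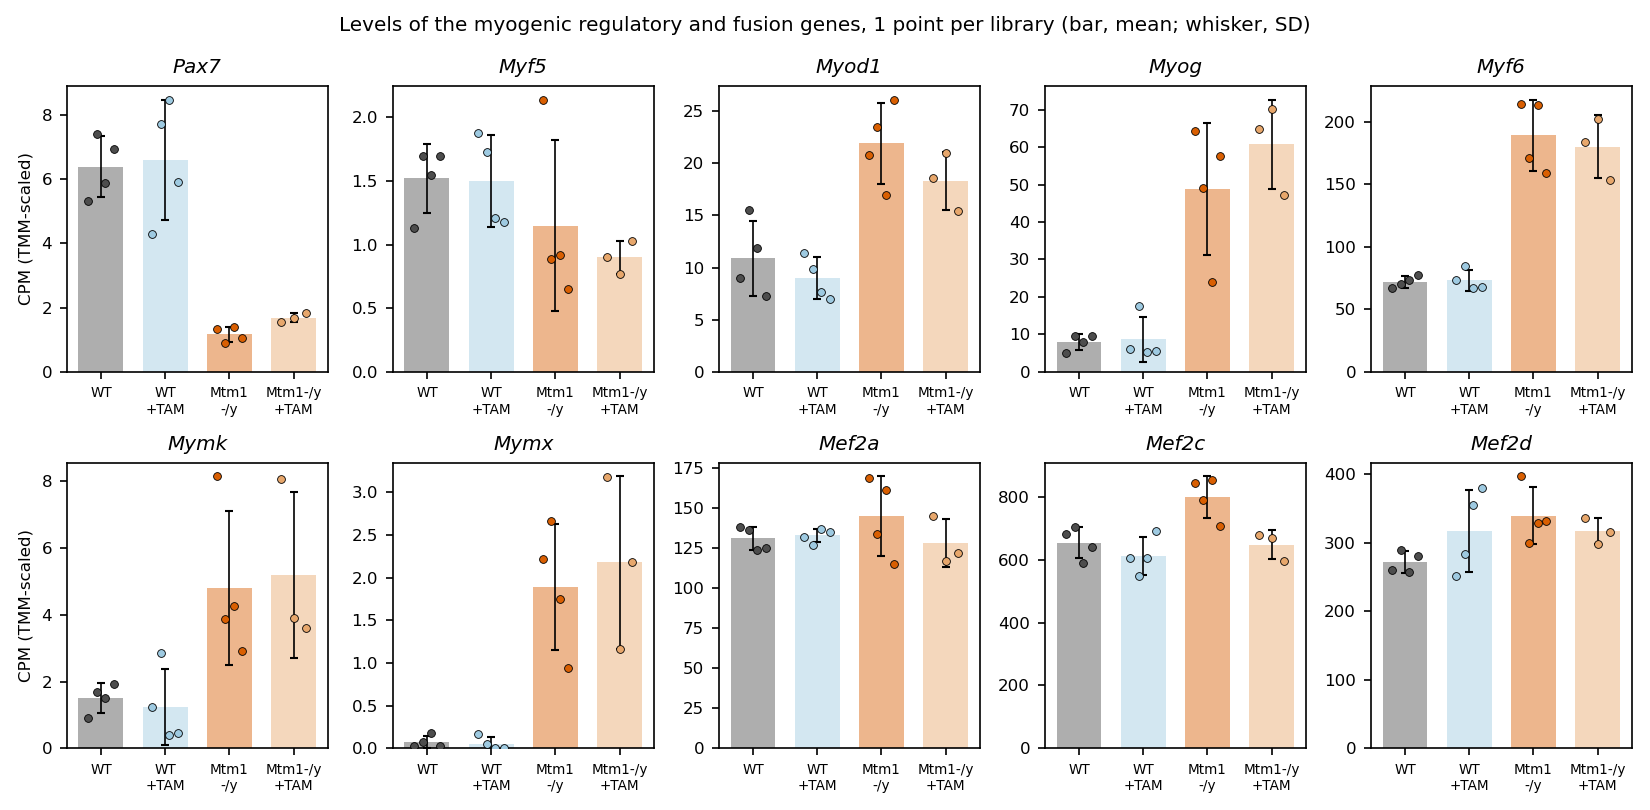
Level of each of the 10 genes in CPM (TMM-scaled, linear axes from 0), with 1 point per library in replicate order, bars at the group mean and whisker lines of 1 SD. Between the 2 untreated groups, the mutant points lie below the WT points for *Pax7* and above them for *Myod1*, *Myog*, *Myf6*, *Mymk*, *Mymx*, *Mef2c* and *Mef2d*, while *Myf5* and *Mef2a* overlap.

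To compare the genes with each other, levels were divided by exon length and are given here as CPM per kb. This length joins the exons of all annotated transcripts, and was 1263 bases for *Myf6* (1 transcript) and 15715 bases for *Mef2c* (31 transcripts). The order below depends on it. In CPM without this division, the WT means were 654 for *Mef2c*, 272 for *Mef2d*, 131 for *Mef2a* and 72 for *Myf6*. In WT muscle *Myf6* stood first at 57.0 ± 3.74 CPM per kb (SD, n = 4), followed by *Mef2d* at 45.4 ± 2.62 and *Mef2c* at 41.6 ± 3.15, whose libraries overlapped. *Mef2a* followed at 8.92 ± 0.488 CPM per kb, then *Myod1* at 5.88 ± 1.93 and *Myog* at 5.32 ± 1.45, a pair that overlapped. The stem cell gene *Pax7* (1.09 ± 0.162 CPM per kb), *Mymk* (1.00 ± 0.29) and *Myf5* (0.73 ± 0.129) came next. *Mymk* overlapped with *Pax7* and with *Myf5*, while *Pax7* lay below *Myog* and *Myf5* above *Mymx* without overlap. *Mymx* came last at 0.0755 ± 0.0689 CPM per kb. WT + TAM gave nearly the same order, with *Myog* and *Myod1* exchanged and overlapping.

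In the mutants the order differed, mainly for *Myog* and *Pax7*. *Myog* took the fourth place in Mtm1-/y at 32.7 ± 11.8 CPM per kb, above *Myod1* and *Mef2a*, and *Pax7* was last at 0.199 ± 0.0409, below *Mymx* at 1.84 ± 0.717. In Mtm1-/y + TAM *Myog* again had the fourth place (40.6 ± 7.99 CPM per kb, n = 3), where it overlapped *Mef2c* (41.2 ± 2.93), and *Pax7* again last (0.288 ± 0.0257).

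**Figure D2:**
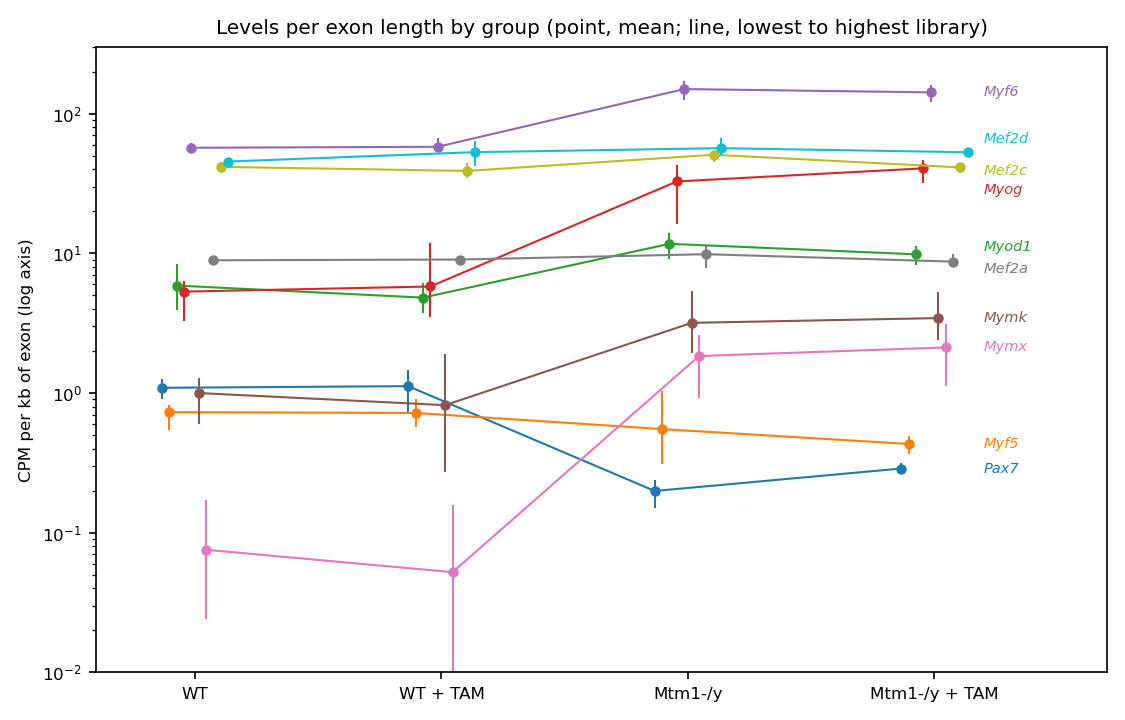
Mean level per exon length of each gene in the 4 groups (CPM per kb, log axis), with vertical lines from the lowest to the highest library. The line of *Mymx* in WT + TAM reaches 0, which a log axis cannot show, and is drawn to the axis. *Myog* moves from 5.32 CPM per kb in WT to 32.7 in Mtm1-/y, past *Myod1* and *Mef2a*, and *Pax7* from 1.09 to 0.199.

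The comparison of Mtm1-/y with WT asks how the mutation alone goes with these genes. Of the 9 members other than *Mymx*, 6 were called: *Myf6*, *Myod1*, *Myog*, *Mymk* and *Mef2c* were higher and *Pax7* was lower. Over all tested genes 30.4% were called, 15.5% higher and 14.9% lower. The values of the groups did not overlap for 7 of the 9, against 30.5% of all tested genes. The median log2 fold change was 0.32 over the 9 and 0 over all tested genes.

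*Pax7* read 5.31, 7.39, 5.89 and 6.92 CPM in the WT libraries and 1.33, 0.887, 1.40 and 1.05 CPM in the Mtm1-/y libraries. All mutant libraries lay below all WT libraries. *Pax7* fell by 2.44 on the log2 scale (SE 0.22, edgeR adjusted p = 3.63e-06), which is 5.42-fold lower. In whole muscle, fewer cells of a type and less RNA per cell cannot be told apart. The call held under all 25 alternative settings that give a fold change, with log2 fold changes of -2.52 to -2.34.

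Other genes known from satellite cells did not all move with *Pax7*. Of 16 markers listed besides the members, 9 were called lower and 4 higher (81.2%, against the 30.4% of all tested genes), with a median log2 fold change of -0.79. Over the 14 of them that pass the filter in each genotype alone, which leaves out *Calcr* and *Pax3*, 8 were lower and 4 higher, with the same median. The calcitonin receptor gene *Calcr*, which marks quiescent satellite cells, had 30, 34, 21 and 42 counts in WT and 3, 0, 5 and 0 counts in Mtm1-/y. *Calcr* passed the filter only through the WT libraries, so this is a description, with a fitted log2 fold change of -4.09, or -5.04 without Mtm1-/y replicate 3. The FGF receptor gene *Fgfr4* fell from 8.37 ± 1.82 to 1.20 ± 0.551 CPM (log2 fold change -2.77). *Chodl*, encoding the membrane lectin chondrolectin, fell from 9.15 ± 1.05 to 2.42 ± 1.95 CPM (log2 fold change -1.96, adjusted p = 0.00616, and -2.65 without Mtm1-/y replicate 2). The 3 genes with the largest rises of the list were the adhesion gene *Ncam1* (log2 fold change 2.80), the syndecan gene *Sdc4* (1.58) and the laminin receptor gene *Itga7* (0.65). Muscle fibres or other cells of muscle also express genes of this list, both among those called higher and among those called lower. The part of such cells in these counts was not tested. The sum of the list, 364 to 426 CPM in WT and 406 to 565 CPM in Mtm1-/y, is carried by its abundant genes. *Itga7* alone was at 133 ± 7.56 and 210 ± 10.8 CPM.

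Most endothelial markers were also lower, while markers of smooth muscle cells and pericytes went both ways. Of 6 endothelial markers 5 were called lower and none higher (83.3%, against the 30.4% of all tested genes). Their summed level was 466 to 619 CPM in WT and 258 to 347 CPM in Mtm1-/y. None of the 6 was at 0 in any group. Of 6 markers of smooth muscle cells and pericytes 2 were called lower and 1 higher, with sums of 553 to 697 and 367 to 488 CPM. The part of these cells in the *Pax7* result was not tested.

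Among the bHLH factors, *Myog* differed most. *Myog* stood at 4.90, 9.44, 7.92 and 9.53 CPM in WT and at 64.4, 49.2, 24.1 and 57.6 CPM in Mtm1-/y. The lowest mutant library, replicate 3, was above the highest WT library. The rise was 2.62 on the log2 scale (SE 0.42, adjusted p = 0.000595), a fold of 6.17.

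*Myf6*, the bHLH gene of mature fibres, stood at 66.7, 70.1, 73.4 and 77.7 CPM in WT and at 214, 171, 213 and 159 CPM in Mtm1-/y. The groups did not overlap, and both were narrow, with an SD of 4.72 CPM in WT and 28.5 CPM in the mutants. *Myf6* rose by 1.40 on the log2 scale (SE 0.12) and had the lowest adjusted p among the members (3.13e-06).

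*Myod1*, a determination factor of the myoblast, stood at 9.03, 15.5, 11.9 and 7.30 CPM in WT and at 20.8, 23.5, 17 and 26.1 CPM in Mtm1-/y. The groups lay close, from 15.5 CPM in the highest WT library to 17 in the lowest mutant library, without overlapping. *Myod1* thus rose by 1.00 on the log2 scale, with an SE of 0.22 and an adjusted p of 0.0033. The calls of *Myog*, *Myf6* and *Myod1* held under all 25 alternatives.

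*Myf5*, which lies beside *Myf6* on chromosome 10 and acts early in the lineage, was the bHLH gene that was not called. Its levels were 1.13, 1.70, 1.55 and 1.70 CPM in WT and 2.14, 0.887, 0.922 and 0.650 CPM in Mtm1-/y. Replicate 1, a library that stood apart in the principal components, was above all WT libraries and the other three mutant libraries were below them. The log2 fold change was -0.39 (95% interval -1.07 to 0.30, adjusted p = 0.385), and without that library it was -0.90 (adjusted p = 0.0163). *Myf5* had 22 to 82 counts per library in these groups.

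The make-up of the bHLH family is described here without a test. *Myf6* held 82.8 ± 3.4% of the summed CPM per kb of the 4 genes in WT and 76.8 ± 6.99% in Mtm1-/y. *Myog* held 7.63 ± 1.66% in WT and 16.8 ± 5.84% in Mtm1-/y, with a range of 5.33 to 8.90% against 8.29 to 21.6%, which overlap at 1 mutant library. *Myod1* held 8.53 ± 2.64% and 6.12 ± 1.53%, although its own level was higher in the mutants.

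The fusion gene *Mymx* was at or near the limit of counting in WT, with 1, 2, 4 and 1 counts, and had 85, 66, 55 and 42 counts in Mtm1-/y. The WT values are at or close to the 3 counts that a count of 0 allows. Over the groups, 248 counts stood against 8, a ratio per scaled library of 27.3 (95% interval 13.7 to 64, counting error only). The fitted log2 fold change was 4.72 (SE 0.66), and 5.4 without WT replicate 3.

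*Mymk*, whose product acts with myomixer at the membrane, stood at 0.910, 1.70, 1.5 and 1.94 CPM in WT and at 8.16, 3.87, 4.26 and 2.93 CPM in Mtm1-/y. Every mutant library was above every WT library, and replicate 1 was farthest from the others. *Mymk* rose by 1.68 on the log2 scale, with an SE of 0.52 and an adjusted p of 0.0261. This call was lost without WT replicate 1 (adjusted p = 0.0762), without WT replicate 2 (0.0525), without WT replicate 3 (0.0562) and without Mtm1-/y replicate 1 (log2 fold change 1.29, adjusted p = 0.079). It was also lost without the filter on low counts (adjusted p = 0.075).

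Among the MEF2 genes the differences were small. *Mef2c*, the major MEF2 gene of developing muscle, stood at 681, 704, 591 and 641 CPM in WT and at 845, 791, 852 and 707 CPM in Mtm1-/y. The groups did not overlap, by a margin of 704 against 707 CPM. The log2 fold change of 0.29 (SE 0.10) was called at an adjusted p of 0.0449, close to the threshold. It lost the call under 16 of 25 alternatives, with values of 0.24 to 0.34 and an adjusted p of at most 0.126. These include leaving out any of the 4 WT libraries, WT + TAM replicate 3, Mtm1-/y replicate 1, 2 or 3, or any of the 3 Mtm1-/y + TAM libraries (log2 fold change 0.24 to 0.33).

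*Mef2d* stood at 260, 289, 257 and 280 CPM in WT and at 397, 299, 328 and 331 CPM in Mtm1-/y. Its groups did not overlap either, but the log2 fold change of 0.32 (95% interval 0.05 to 0.59) was not called (adjusted p = 0.0676). DESeq2 called it (adjusted p = 0.0386), as did the fit without WT + TAM replicate 1 (adjusted p = 0.0339). *Mef2d* shares 531 exonic bases with 1700113A16Rik on the opposite strand, and the sources used here do not say whether the counting used strand.

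*Mef2a* gave 124 to 138 CPM in WT and 115 to 169 CPM in Mtm1-/y, which overlap, and a log2 fold change of 0.14 (95% interval -0.09 to 0.38). It shares 302 exonic bases with *Lysmd4* on the opposite strand, with the same limit. The shares of the summed MEF2 levels per kb were alike in both groups, with *Mef2c* at 43.4 ± 1.28% in WT and 43.4 ± 2.56% in Mtm1-/y.

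**Figure D3:**
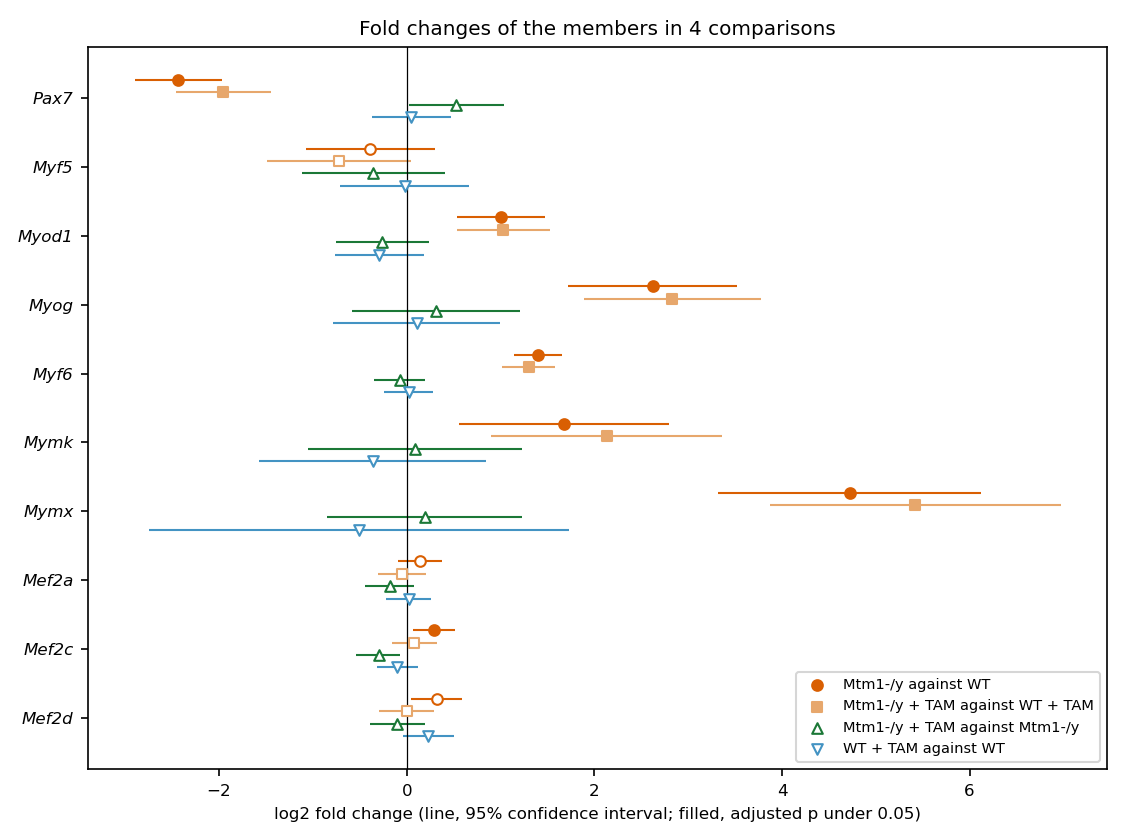
Log2 fold change of the 10 genes in 4 comparisons, with lines for the 95% confidence interval; filled symbols have an edgeR adjusted p under 0.05, which for *Mymx* is a description only. In both comparisons of genotype the filled symbols reach from *Pax7* on the left (-2.44 and -1.96) to *Mymx* on the right (4.72 and 5.42), and no symbol of the 2 tamoxifen comparisons is filled.

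The genes that act around the members were described by 4 further lists. Like the satellite cell markers, these lists were chosen with earlier results of these data known, so their shares are descriptions. Of 25 genes known as targets of the bHLH factors and MEF2, 17 were called higher in Mtm1-/y and 1 lower (72%, against the 30.4% of all tested genes), with a median log2 fold change of 1.09. The cell cycle inhibitor gene *Cdkn1a* rose from 37.5 ± 16.8 to 331 ± 61.9 CPM (log2 fold change 3.15, adjusted p = 0.000302). The embryonic light chain gene *Myl4* rose from 6 ± 1.29 to 31.9 ± 8.81 CPM (2.42), and the embryonic myosin gene *Myh3* from 5.24 ± 0.987 to 26.1 ± 11.9 CPM (2.31). Against them, the cardiac actin gene *Actc1*, also an embryonic isoform of skeletal muscle, fell from 5060 ± 2450 to 474 ± 383 CPM (-3.42, adjusted p = 0.0192). The count of 17 stood at 16 to 18 with a library left out, and the count lower rose to 3 without Mtm1-/y replicate 3.

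Regulators of the bHLH factors went both ways. Of 26 tested of 27 listed, 4 were called higher and 9 lower (50%), with a median log2 fold change of -0.07. The 3 highest were *Tead4*, a factor of muscle differentiation (log2 fold change 1.73), and the inhibitors of bHLH binding *Id1* (1.32) and *Id2* (1.30). *Id1* spread widely in Mtm1-/y (16 ± 9.83 CPM), and its log2 fold change was 0.79 to 1.48 with a library left out. The 3 lowest were *Dach2* (-2.47, adjusted p = 0.00221), which encodes a transcriptional cofactor, then the bHLH repressor genes *Msc* (-0.90, adjusted p = 0.0492) and *Bhlhe41* (-0.72, adjusted p = 0.0486). *Dach2* read 2.48 to 3.10 CPM in WT and 0.358 to 0.794 CPM in Mtm1-/y. The calls of *Msc* and *Bhlhe41* were each lost under 15 of 25 alternatives. The count of 9 was 4 or 5 without WT replicate 2, 3 or 4, Mtm1-/y replicate 2 or 4, or Mtm1-/y + TAM replicate 1 or 3.

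Of 18 cofactors of MEF2 and class IIa histone deacetylases, 6 were called higher and 3 lower (50%), with a median of 0.13. The kinase gene *Sik1* (log2 fold change 1.59), the calmodulin kinase gene *Camk2d* (1.09) and *Hdac4* (1.04), which encodes a repressor of MEF2, were highest. *Sik1* spread widely in Mtm1-/y (103 ± 60.9 CPM), and its log2 fold change was 1.09 to 1.76 with a library left out. The kinase genes *Camk2a* (-0.65), *Mapk14* (-0.56) and *Camk2g* (-0.54) were lowest, and *Camk2a* lost its call without WT replicate 1 or 2 (adjusted p up to 0.0796).

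Of 22 tested of 24 other genes of myoblast recognition and fusion, 2 were called higher and 6 lower, with a median of -0.02. This is 36.4% of the list, near the 30.4% of all tested genes. The adhesion genes *Jam3* (log2 fold change -1.23), *Cdon* (-1.18) and *Jam2* (-0.94) fell. *Ptgfrn* (1.38) and the integrin gene *Itgb1* (0.67) rose. *Ptgfrn* spread widely in Mtm1-/y (35.6 ± 20.9 CPM), and its log2 fold change was 0.89 to 1.58 with a library left out. 

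**Figure D4:**
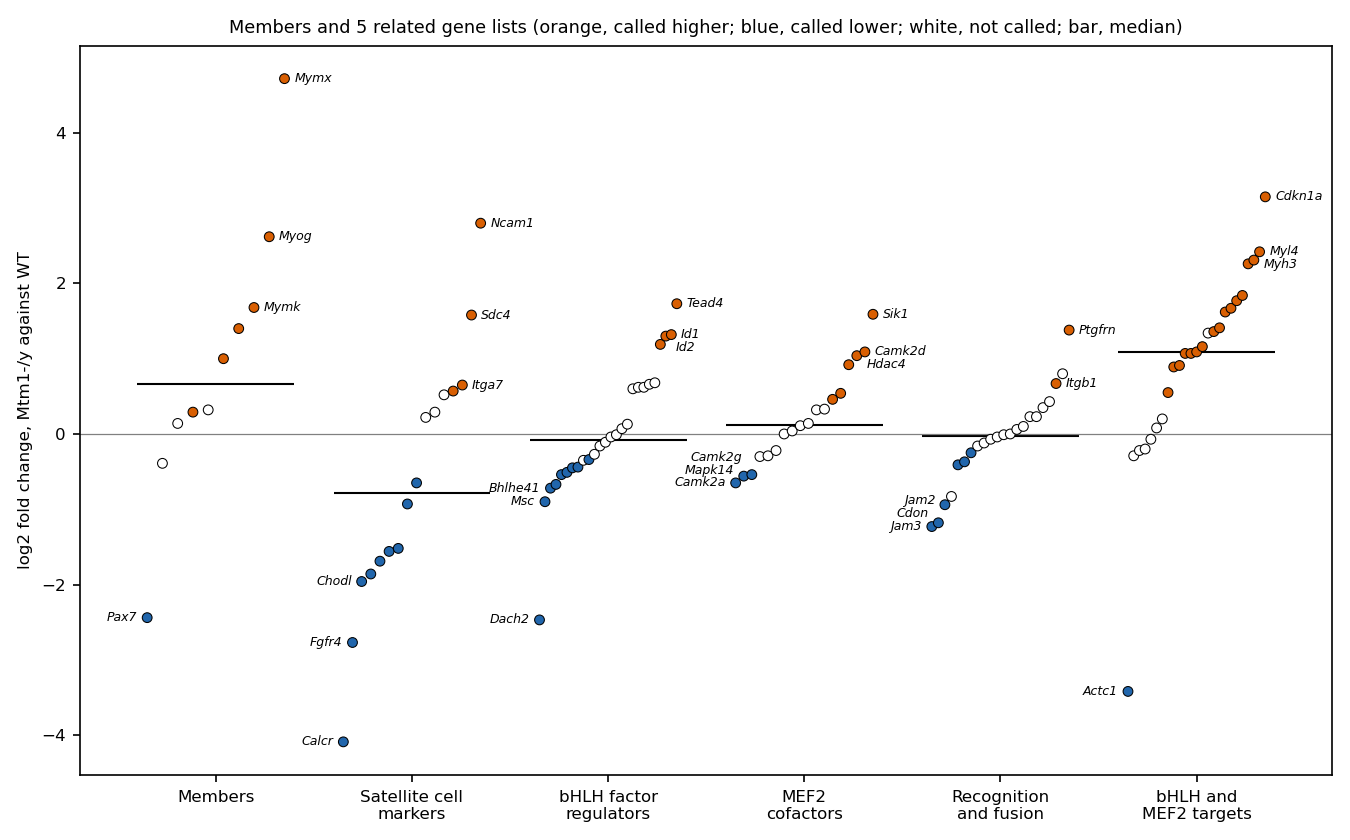
Log2 fold change of Mtm1-/y against WT for the members and each tested gene of the 5 lists, sorted within a list, with a bar at the list's median. Orange genes were called higher and blue genes lower; medians run from -0.79 for satellite cell markers to 1.09 for targets of the bHLH factors and MEF2.

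Mutants with and without tamoxifen were compared to ask whether the treatment goes with a change of these genes. None of the 10 members was called by edgeR, where 0.0129% of all tested genes were. At an unadjusted p under 0.05 there were 2 members, *Pax7* and *Mef2c*, and DESeq2 and limma-voom also called 0. The groups did not overlap for the same 2 of the 10 members, against 5.71% of all tested genes.

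*Pax7* stood at 1.54, 1.69 and 1.84 CPM in Mtm1-/y + TAM, above the 0.887 to 1.40 CPM of the untreated mutants. This gave a log2 fold change of 0.53 (95% interval 0.02 to 1.04) with an unadjusted edgeR p of 0.041 and an adjusted p of 0.855. The treated mutants were still far below the 5.31 to 7.39 CPM of untreated WT mice. Against these, *Pax7* was lower by a log2 fold change of -1.90 (adjusted p = 7.5e-05).

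*Mef2c* stood at 679, 668 and 595 CPM in Mtm1-/y + TAM, below the 707 to 852 CPM of the untreated mutants. This gave a log2 fold change of -0.30 (95% interval -0.54 to -0.07) with an unadjusted edgeR p of 0.0157 and an adjusted p of 0.855. Against untreated WT the treated mutants gave a log2 fold change of -0.01 (95% interval -0.25 to 0.22), with overlapping values. Neither *Pax7* nor *Mef2c* was called under any alternative, with adjusted p of at least 0.599 and 0.442.

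*Myog* read 64.8, 70.2 and 47.3 CPM in the treated mutants, within and above the untreated range of 24.1 to 64.4 CPM. Its log2 fold change was 0.31, with a 95% interval of -0.58 to 1.21 that also holds a 2-fold rise, but not a 2-fold fall. *Myf6* was bounded more tightly, at -0.07 (-0.35 to 0.20) on the log2 scale, with 184, 202 and 153 CPM in the treated mutants. *Myod1* gave -0.26 (-0.75 to 0.24), with 18.6, 21.0 and 15.4 CPM.

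The fusion genes had wide intervals. *Mymk* read 8.06, 3.92 and 3.60 CPM in the treated mutants, with a log2 fold change of 0.09 (95% interval -1.05 to 1.23). *Mymx* had 60, 44 and 87 counts, with a log2 fold change of 0.19 (-0.85 to 1.23). Both overlapped with the untreated mutants. Among the rest, *Myf5* gave -0.36 (-1.12 to 0.41), *Mef2a* -0.18 (-0.44 to 0.08) and *Mef2d* -0.10 (-0.39 to 0.19) on the log2 scale. The median log2 fold change was 0.02 for the satellite cell markers and -0.07 for the targets of the bHLH factors and MEF2.

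In WT mice, tamoxifen also went with no called member in edgeR, DESeq2 or limma-voom, where 0.309% of all tested genes were called by edgeR. No member had an unadjusted p under 0.05, and no member's groups were free of overlap, against 8.08% of all tested genes. *Pax7* was at 4.29, 7.70, 8.47 and 5.91 CPM in WT + TAM, with a log2 fold change of 0.05 (95% interval -0.37 to 0.47). *Myog* was at 6.05, 17.7, 5.26 and 5.64 CPM, where replicate 2 stood above the other three and above all untreated WT libraries. Its log2 fold change was 0.11 (95% interval -0.78 to 0.99), and -0.49 without that library. *Mymx* had 4, 1, 0 and 0 counts, so that a fall could not be seen at this depth, and its log2 fold change had a 95% interval of -2.75 to 1.73. The lowest adjusted p was 0.534, for *Mef2d* at 0.23 (95% interval -0.04 to 0.50).

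Mutants and WT mice that had both received tamoxifen differed in 5 of the 9 members other than *Mymx*, 4 higher and 1 lower. Over all tested genes 20.1% were called, 10.6% higher and 9.46% lower. The groups did not overlap for 6 of the 9, against 31.6% of all tested genes. These libraries are others than those of the untreated comparison, but all 15 shared one estimate of the spread.

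*Pax7* had a log2 fold change of -1.96, with an SE of 0.24 and an adjusted p of 6.98e-05, at 1.54 to 1.84 CPM against 4.29 to 8.47. *Myog* was higher by 2.83 (SE 0.44, adjusted p = 0.000887), and by 3.43 without WT + TAM replicate 2, its high library. *Myf6* was higher by 1.30 (SE 0.13, adjusted p = 1.61e-05) and *Myod1* by 1.03 (SE 0.23, adjusted p = 0.00681). No mutant library of these 4 genes overlapped with WT + TAM, and the calls held under all 25 alternatives.

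*Mymx* had 191 counts in Mtm1-/y + TAM against 5 in WT + TAM, a ratio per scaled library of 44.3 (95% interval 18.7 to 138, counting error only). The fitted log2 fold change, 5.42 (SE 0.73), was 7.10 without WT + TAM replicate 1 and 4.83 without WT + TAM replicate 3. *Mymk* was higher by 2.13 (SE 0.57, adjusted p = 0.0184) and by 2.92 without WT + TAM replicate 2. It lost its call without Mtm1-/y + TAM replicate 1 (1.68, adjusted p = 0.0811). It also lost it in the fit to these 2 groups alone (adjusted p = 0.0611) and without the filter on low counts (0.0581).

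The 4 members not called here included all MEF2 genes. *Mef2c* gave a log2 fold change of 0.08 (95% interval -0.16 to 0.32), *Mef2d* 0.00 (-0.29 to 0.29) and *Mef2a* -0.05 (-0.31 to 0.21). *Myf5* read 0.768 to 1.03 CPM in Mtm1-/y + TAM and 1.18 to 1.88 CPM in WT + TAM, with no overlap. Its log2 fold change of -0.72 (95% interval -1.49 to 0.05) was not called (adjusted p = 0.175), except without Mtm1-/y replicate 1 (adjusted p = 0.0488).

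Of the 16 satellite cell markers, 2 were called higher and 6 lower here (50%, against the 20.1% of all tested genes). The count lower was 3 without Mtm1-/y + TAM replicate 1. Over the 14 that pass the filter in each genotype alone, 2 were higher and 5 lower. *Calcr* had 0, 3 and 1 counts in Mtm1-/y + TAM against 21 to 35 in WT + TAM. Of the 6 endothelial markers 4 were called lower and 0 higher (66.7%, against the 20.1% of all tested genes). Their summed levels overlapped here, at 262 to 339 against 313 to 564 CPM. Of the 6 markers of smooth muscle cells and pericytes 4 were called lower and 1 higher (83.3%). Their sums were 355 to 436 against 453 to 614 CPM. The part of these cells in the *Pax7* result was not tested. Of the 25 targets of the bHLH factors and MEF2, 12 were called higher and 0 lower (48%), and *Actc1* was not among the called.

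Treated mutants differed from untreated WT mice in 5 of the 9 members other than *Mymx*, where 23.3% of all tested genes were called. The members called were *Pax7*, *Myf6*, *Myod1*, *Myog* and *Mymk*. The log2 fold changes were 1.32 for *Myf6* and 2.94 for *Myog*, with SE of 0.13 and 0.44. *Myod1* overlapped with WT and was higher by 0.75 on the log2 scale (SE 0.23, adjusted p = 0.0302). Its call was lost without WT replicate 1 or 4 and without Mtm1-/y + TAM replicate 1 or 2 (log2 fold change 0.59 to 0.74, adjusted p up to 0.122). The call of *Mymk* (1.77, adjusted p = 0.0331) was lost without any of the 4 WT libraries and without Mtm1-/y + TAM replicate 1 or 2 (1.32 to 1.93, adjusted p up to 0.143).

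Whether tamoxifen went with a different change in mutants than in WT was tested directly as the interaction of genotype and tamoxifen. No member was called by edgeR, DESeq2 or limma-voom, as were 0% of all tested genes by edgeR, and no member had an unadjusted p under 0.05. The interaction was 0.48 for *Pax7* (95% interval -0.18 to 1.14, adjusted p = 0.595) and -0.21 for *Mef2c* (-0.53 to 0.12, adjusted p = 0.637). So the call of *Mef2c* in the untreated pair and its lack in the treated pair are not shown to differ. The lowest adjusted p was 0.555, for *Mef2d* at -0.32 (95% interval -0.72 to 0.07).

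Within groups, members varied together to different degrees. Deviations of log2 CPM from the group means were correlated over the 15 libraries, as a description of points that share a library's scaling. The fusion gene *Mymk* had Pearson r of 0.70 with each of *Myf5*, *Myf6* and *Myog*, and 0.72, 0.66 and 0.73 without the 2 libraries that stood apart. *Mymk* and *Mymx* had r of 0.56 with and 0.55 without these libraries. *Mef2a* and *Mef2c* had r of 0.68 and 0.66. *Pax7* and *Mef2d* had r of 0.55 over 15 libraries but 0.08 over the 13 others.

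Among the 11057 tested genes whose mean log2 CPM reached 1, the 3 most like each of 4 members by this measure were also noted. They were *Kin* (0.88), *Smarcb1* (0.87) and *Ptpra* (0.87) for *Myog*. For *Myf6* they were *Nfya* (0.80), *Pura* (0.78) and *Cdc14a* (0.78). For *Mef2c* they were *Mlxip* (0.88), *Tut4* (0.86) and *Elmsan1* (0.86), and for *Pax7* *Pip5k1c* (0.94), *Gpr4* (0.92) and *Fgd5* (0.90). Without the 2 libraries that stood apart, 3 of these 12 genes were still among the 3 most alike, *Smarcb1*, *Mlxip* and *Pip5k1c*. *Nfya*, *Pura* and *Cdc14a* then ranked 44, 58 and 54 for *Myf6*. Each named r is picked as among the highest of 11057 values over 15 libraries. No chance level was computed for such values, so they are a description.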

How the data were processed

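The only deposited file is a table of raw counts per Ensembl gene, a column per sample, which the authors did not normalize. Per the processing notes they used HTSeq 0.6.1p1, STAR 2.5.3a, Bowtie2 2.2.8 and cutadapt 1.10 with mm10 and GRCm38. The role of each tool, the strand setting, the annotation release and the read filters are unknown. All 30672 identifiers matched GENCODE M21. Groups came from the labels alone. Nothing states how the samples of a group were bred, so p-values measure the spread between these samples.

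Counts were analysed in R 4.3.3 with edgeR 4.0.16: filterByExpr (minimum count 10), TMM factors, and a quasi-likelihood fit (robust) of 4 group means to all 15 libraries, with glmQLFTest and Benjamini-Hochberg adjustment over 15533 genes. Log2 CPM values had a prior count of 2. DESeq2 1.42.0 and limma-voom (limma 3.58.1) were alternatives. The steps were tested on simulated counts.

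The members, gene lists and alternatives were chosen with earlier results of these data known. Named in the text are the members, *Mtm1*, the 3 highest and 3 lowest called genes of each of the 5 lists around the members (satellite cell markers, regulators of the bHLH factors, MEF2 cofactors, recognition and fusion, targets), and the 3 genes most like *Myog*, *Mef2c*, *Myf6* and *Pax7*. For the comparison of treated mice, only examples of these are printed.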

Additional observations from a re-analysis of the deposited data

Results flagged for a closer look

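Dixon's ratio was computed for *Mtm1* and the 10 members in each group of 4 libraries, 33 sets of values in all. By chance about 1 set in 20 passes. In 1 set a library was far from the others of its group. *Myog* in WT + TAM replicate 2 was at 17.7 CPM, against 6.05 CPM in the next library and 5.26 in the lowest (ratio 0.936). The same library also had the highest *Mymk* (2.85 CPM) and *Myf6* (84.7 CPM) of its group, which did not pass. Without it, the log2 fold change of WT + TAM against WT was -0.49 for *Myog* (adjusted p = 0.554) and -1.15 for *Mymk* (adjusted p = 0.354).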

How the results depend on the processing

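The number of members called, *Mymx* included, was 5 to 8 in Mtm1-/y against WT, 5 to 7 in Mtm1-/y + TAM against WT + TAM, 4 to 8 in Mtm1-/y + TAM against WT and 0 in the other three comparisons, over all alternatives run. The first 3 of these counts hold *Mymx*, whose call is a description only. As reported, the number was 7, 6 and 6 of 10, where 30.4%, 20.1% and 23.3% of all tested genes were called. With a library left out it was 5 to 8, 5 to 7 and 4 to 7. Without the 2 libraries that stood apart it was 6, 6 and 7. No called member changed direction. In Mtm1-/y against WT, *Mef2c* was not called with upper-quartile factors (adjusted p = 0.0665), without the filter on low counts (0.0727), with only the groups compared (0.0666), with the replicate number as a block (0.0694) or without both libraries that stood apart (0.0605). The latter also ended the call of *Mymk* (0.0874) and gave one for *Myf5* (0.0114). Other members on the other side of the threshold under an alternative are named in the report, except *Mymk* (adjusted p = 0.0779) with the replicate number as a block and *Mymk* and *Myod1* without the filter on low counts (0.0975 and 0.0537), and *Myf5* and *Mef2d* when only the groups compared were fitted (0.0358 and 0.0372) and *Myf5* without Mtm1-/y replicate 1 or without both libraries that stood apart (0.0375 and 0.0288), all in Mtm1-/y + TAM against WT.

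The replicate numbers did not pair the samples: of 21 same-numbered pairs 5 had deviations correlated above 0.1 (range -0.11 to 0.31), and in 13 of 42 cases a library correlated best with its own number. With the number as a block, 6, 6 and 5 members, *Mymx* included, were called in these comparisons and 0 in the others.

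Counts over all genes moved more. They were 1536 to 5257 for Mtm1-/y against WT (4727 as reported), 934 to 4600 for Mtm1-/y + TAM against WT + TAM (3121), 1215 to 5420 for Mtm1-/y + TAM against WT (3615), 11 to 347 for WT + TAM against WT (48), 0 to 7 for Mtm1-/y + TAM against Mtm1-/y (2) and 0 to 74 for the interaction (0). The low ends of the first 3 come from also asking for an absolute log2 fold change over 1. The cause of the other moves was not tested. Counts per library were low for *Mymx* in WT mice (0 to 4) and for *Calcr* in mutants. They were 12 to 66 for *Mymk* in WT mice and 17 to 82 for *Myf5* over all groups. The part of depth in the results of *Mymk* and *Myf5* was not tested.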
